A study of Mus musculus with 15 samples.

Results

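The comparison described here sets mouse pancreatic cancer cells kept for 24 h in medium conditioned by heterozygous pancreatic stellate cells (HT PSC medium) against the same cells kept for 24 h in control medium. Its members are 6 of the 15 arrays of the series, 3 per medium, chosen by the treatment named in the sample labels and by no measured value. All 59305 spots of each 1-colour Agilent mouse array were read, and 19681 genes entered the test. The series also holds 3 arrays of the cancer cells in medium of wild-type stellate cells (WT PSC medium), which share the 3 controls and appear here beside the heterozygous medium. The other 6 arrays are the stellate cells themselves, 3 from wild-type and 3 from heterozygous mice, cultured for 2 weeks until activated, and they serve here as a marker reference. The cells of all 9 cancer cell arrays were neoplastic pancreatic cells, and only the medium differed by label. The heterozygous locus, the age of the mice, the cancer cell line and the make-up of the control medium are not given in the labels used here, nor is it stated whether replicates came from separate cultures. The p-values therefore measure sample-to-sample spread alone, which could be of technical origin.

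Stellate cells are a fibroblast-like cell type of pancreatic tissue. Once activated they release growth factors, matrix proteins, proteases and metabolites, and medium taken from their culture carries this mixture, less the nutrients they used, to other cells. Ductal pancreatic cancer cells often keep a gastric or mucous programme, with gel-forming mucins, trefoil peptides and detoxifying enzymes, and can also be driven by growth factor, mechanical and nutrient-stress signals. Lack of amino acids is sensed through translation of the transcription factor ATF4, growth factors induce immediate early genes through MAP kinases and serum response factor, and cell stretch and spreading act through the co-activator YAP on TEAD factors.

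The cells carried the markers of ductal-type epithelium in both media. All 10 epithelial markers, among them the cadherin Cdh1 and the keratins Krt8, Krt18 and Krt19, were well above background on every control and HT PSC medium array. Of 11 stellate cell and fibroblast markers, 7 were not well above background on any of these 6 arrays, among them Col3a1, Pdgfra, Pdgfrb, Dcn and Des. Between 55.0% and 58.5% of the spots of these 6 arrays were well above background and none was saturated. The arrays lay on 2 slides, with controls 1 and 3 and HT arrays 1 and 3 on slide 1, and control 2 and HT array 2 on slide 2. A principal component analysis of the 9 cancer cell arrays put 33.9% of the variance on its first axis, with scores of -35.5 to -12.7 in controls, -0.892 to 13.5 in HT PSC medium and 6.85 to 25.4 in WT PSC medium. Control 1 lay farthest out, and HT array 3 was the treated array nearest to the controls. Because RNA of whole cultures was measured, fewer cells of a kind and less RNA per cell cannot be told apart.

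In HT PSC medium the secreted mucins Muc5ac and Muc5b and many gastric-type and drug-metabolizing genes were lower, and genes of the ATF4, immediate early and plasminogen lists were higher, with the counts given for each list. Of 19681 genes, 1076 passed an adjusted p of 0.05 in limma (5.47%), 585 higher (2.97%) and 491 lower (2.49%). At least 2-fold differences were fewer and mostly falls: 27 genes rose that far (0.137%) and 76 fell (0.386%). The median difference over all genes was 0.01, and the median size among called genes was 0.49. In 4805 genes (24.4%) the arrays of the groups did not overlap, and the 1076 called genes were all among them. Levels are given as log2 signal relative to the 75th percentile of the array, and differences as log2 units ± SE with n = 3 arrays per group, with limma's adjusted p over all 19681 genes. A level of 0 is the 75th percentile, and array floors in these 6 arrays lay between -5.74 and -5.28. The level of a gene is that of its brightest probe, and other probes often differed: of 105 named genes with a further probe, the next brightest gave the same call in 44, the same sign without a call in 50 and the opposite sign in 11. Every called gene kept its sign on each slide taken alone, an outcome fixed by the lack of overlap between the groups. Signs were also kept with slide as a block. There HT and control arrays were spread alike over the slides, so the differences were those of the main fit. The count of calls rested on single arrays: it was 484 without HT array 1, 534 without HT array 3, 535 without control 1, 586 without control 2 and 647 without HT array 2, against 927 without control 3.

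**Figure D1:**
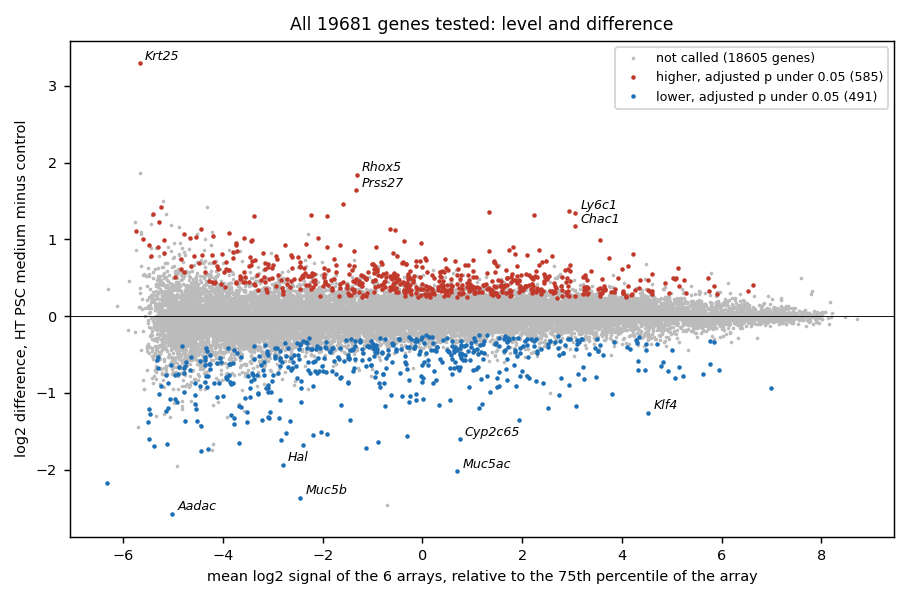
Difference between HT PSC medium and control (vertical axis, log2 units) against the mean level of the 6 arrays (horizontal axis, log2 signal relative to the 75th percentile) for the 19681 genes tested. Red points are the 585 genes that passed the threshold as higher and blue points the 491 that passed as lower. The largest differences lie at low levels, while Muc5ac, Cyp2c65 and Klf4 fell from higher ones. Krt25 and Aadac are drawn at fitted values although 1 of their groups was at background, where only a bound was measured.

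Secreted mucins, which form the gel that coats gastric and ductal epithelium, gave the largest falls among named genes that stayed well above background on all 6 arrays. Of 8 mucins tested, 3 fell and 0 rose, with a median of -0.38. Muc5ac, the main gel-forming mucin of gastric surface cells (probe at chr7:149004793-149004852, mm9), read 1.90, 1.69 and 1.51 on controls 1 to 3 and -0.50, -0.16 and -0.31 in HT PSC medium. The treated arrays all lay below every control, and Muc5ac fell by 2.02 ± 0.15 (adjusted p = 0.00046). Muc5b, a gel-forming mucin of glands (chr7:149058931-149058990), read -1.12, -1.21 and -1.50 in control medium and -3.58, -3.65 and -3.70 in HT PSC medium. The groups were again apart, with a fall of 2.37 ± 0.16 (adjusted p = 0.000281). Muc2, the intestinal mucin, was dim and fell by 0.78 ± 0.11 (adjusted p = 0.00708), but its next brightest probe, not well above background on any array, gave 0.12. The membrane mucin Muc1 had a difference of 0.04 ± 0.10 (adjusted p = 0.896), with overlapping groups. Each of the 6 fits that left out a control or HT array called 3 mucins lower.

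Genes of gastric surface and goblet cells went the same way: of 14 tested, 9 fell, 0 rose and the median was -0.58. The trefoil peptides protect and repair mucosa. Tff1 read 7.53, 7.55 and 7.28 in control medium and 6.54, 6.60 and 6.40 after treatment, and Tff2 read 4.38, 4.42 and 4.11 and 3.44, 3.14 and 3.30. Both were lower on each treated array than on any control, by 0.94 ± 0.10 and 1.01 ± 0.12 (adjusted p = 0.00172 and 0.00275). Gkn2, a gastrokine of gastric surface cells, stood at -0.15, 0.17 and -0.25 in controls and at -1.79, -1.56 and -1.82 in HT PSC medium. This was a fall of 1.64 ± 0.13 (adjusted p = 0.000492). Clca1, a protease that goblet cells secrete with mucus, was more variable in controls (2.07, 2.97 and 2.77) and read 1.14, 1.22 and 1.40 after treatment, a fall of 1.35 ± 0.21 (adjusted p = 0.00963). The mucous cell transcription factor Spdef fell by 0.84 ± 0.14 (adjusted p = 0.0114), with -0.62 within slide 1 and -1.29 within slide 2. The called members Vsig1 (-0.41 ± 0.08) and Ctse (-0.41 ± 0.10), a gastric junction protein and a gastric cathepsin, were chosen after their values were seen. Leaving out single arrays gave 6 calls without control 1 or HT array 3, and 7 or 8 otherwise. Within slide 1 the median of the list was -0.44, and within slide 2 it was -0.71.

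**Figure D2:**
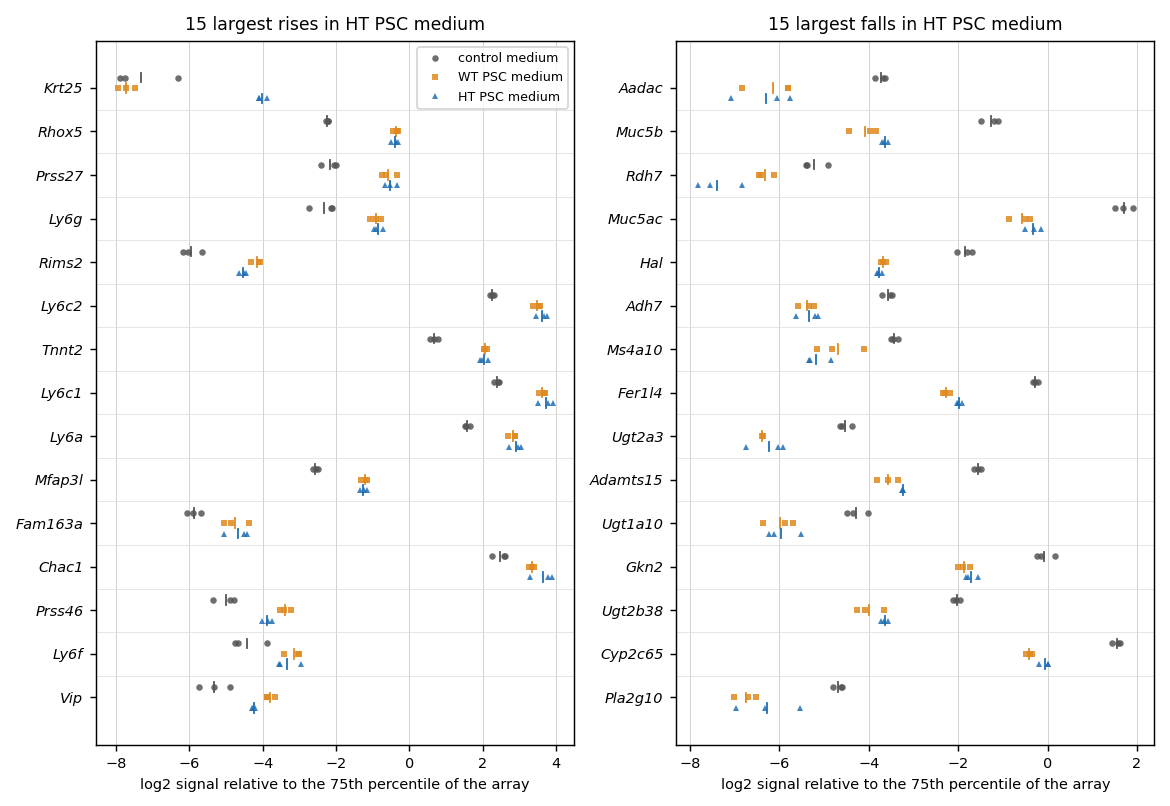
Levels of the 15 genes with the largest rises (left) and the 15 with the largest falls (right) in HT PSC medium, as log2 signal relative to the 75th percentile of the array. Points are single arrays, 3 per medium, and short bars are group means. Muc5ac and Muc5b lie below the controls on every treated array, and the WT PSC medium arrays of Krt25 lie at the level of the controls.

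Many enzymes that modify drugs, steroids and retinoids fell: of 23 tested, 12 fell, 0 rose and the median was -0.56. The cytochrome P450 Cyp2c65 (chr19:39168290-39168349) read 1.62, 1.44 and 1.58 in control medium and -0.19, 0.01 and 0.00 in HT PSC medium, more than a whole log2 unit below every control. It fell by 1.61 ± 0.08 (adjusted p = 9.63e-05). Cyp26b1, which degrades retinoic acid, fell by 1.24 ± 0.18 (adjusted p = 0.00646). The sulfotransferases Sult1c2 and Sult1d1 fell by 1.20 ± 0.10 and 1.10 ± 0.07 (adjusted p = 0.000652 and 0.000281). Ugt2b34, which attaches glucuronic acid, read 3.28, 3.21 and 3.26 in controls and 2.29, 2.11 and 2.27 after treatment, and the flavin monooxygenase Fmo5 read 0.38, 0.46 and 0.30 and -0.60, -0.72 and -0.60. Their falls were 1.03 ± 0.07 and 1.02 ± 0.07 (adjusted p = 0.000281 and 0.000281), with tight and separate groups. Of the other called members, chosen after their values were seen, the sulfotransferase Sult1a1 had -0.87 ± 0.11, the epoxide hydrolase Ephx1 had -0.81 ± 0.08, the P450s Cyp3a13 and Cyp2s1 had -0.71 ± 0.09 and -0.66 ± 0.08, the carboxylesterase Ces2c had -0.56 ± 0.10 and the aldehyde dehydrogenase Aldh3a1 had -0.34 ± 0.07. A second, dim Cyp2s1 probe gave 0.085. Between 10 and 12 members were called in each fit that left out a control or HT array.

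Several of the 15 largest falls were enzymes of the same kind outside that list. Aadac, an esterase of liver and intestine, read -3.64, -3.85 and -3.68 in controls and -7.09, -5.76 and -6.06 in HT PSC medium, where no array was well above background, so it was at least 3.29-fold lower (adjusted p = 0.0066). Rdh7, a retinol dehydrogenase, was near the floor throughout and at least 1.15-fold lower (adjusted p = 0.00247). The glucuronosyltransferases Ugt2a3 and Ugt1a10 were at least 1.86-fold and at least 2.18-fold lower (adjusted p = 0.00509 and 0.00593), and Ugt2b38 fell by 1.61 ± 0.14. One WT PSC medium array of Ugt2a3 was left out as an outlier spot. These bounds set the control mean against the higher of the floor and the reading on each treated array. The adjusted p-values test the fitted differences, which include readings below the floor, and not the bounds. The genes with a bound entered the test through their control arrays only. Adh7, the retinol-oxidising alcohol dehydrogenase of the stomach, fell (adjusted p = 0.000807) by a fitted 1.75, -1.85 to -0.79 over the alternatives, and was well above background on 2 of 3 treated arrays. Hal, which breaks down histidine, read -1.69, -2.02 and -1.81 in control medium and -3.70, -3.80 and -3.82 in HT PSC medium. Its groups were far apart, with a fall of 1.93 ± 0.09 (adjusted p = 6.73e-05), while a second, dimmer probe had -0.16 (adjusted p = 0.72). The probes of the Ugt2b and Cyp2c genes may read related copies of the family.

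The remaining large falls were of mixed function. Fer1l4, a dysferlin-like transcript, fell by 1.71 ± 0.07 and Adamts15, a matrix protease, by 1.68 ± 0.11 (adjusted p = 3.31e-05 and 0.000281). Ms4a10, a membrane protein, read -3.50, -3.35 and -3.45 in controls and -5.33, -5.34 and -4.85 in HT PSC medium, where 1 array was well above background. Pla2g10, a secreted phospholipase, fell from -4.59, -4.81 and -4.63 to -6.97, -6.33 and -5.54 and was also well above background on 1 treated array. Both passed with every treated array below the controls (adjusted p = 0.0066 and 0.0228), but most treated readings were at background, so no exact size was measured. Over the alternatives the fitted value was -1.90 to -0.77 for Ms4a10 and -1.97 to -0.46 for Pla2g10, whose call was lost in 7 of 17, and another, dim Pla2g10 probe had -0.19.

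Transcription factors of endodermal epithelium were lowered less and less evenly: of 17 tested, 6 fell, 0 rose and the median was -0.16. Klf4, a factor of terminally differentiating epithelium that also belongs to the immediate early list, was the clearest. It read 5.22, 5.09 and 5.15 in control medium and 3.96, 3.79 and 3.94 in HT PSC medium, a fall of 1.26 ± 0.08 (adjusted p = 0.000218) with groups more than a log2 unit apart. The others fell by less: Onecut1 by 0.45 ± 0.08, Onecut2 by 0.44 ± 0.07, the epithelial Ets factors Elf3 by 0.44 ± 0.08 and Ehf by 0.41 ± 0.09, and Gata6 by 0.29 ± 0.07 (adjusted p = 0.0145 to 0.0481). Sox9, a ductal progenitor factor, had -0.69 ± 0.17 (adjusted p = 0.0546) and did not pass. The smaller falls rested on single arrays, with 1 call left without control 1, control 2 or HT array 3, 3 without HT array 1 or 2, and 5 without control 3. Median centring of the arrays also left 1.

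Of 12 Hedgehog genes 2 fell, the ligands Shh and Ihh, 0 rose and the median was -0.0048. Hedgehog ligands made by pancreatic cancer cells act on the stellate cells around them. Shh read -0.08, -0.11 and -0.17 in controls and -1.11, -1.28 and -1.03 after treatment, and Ihh read 1.77, 1.94 and 1.50 and 0.48, 0.50 and 0.64. Each treated array was lower than each control, by 1.02 ± 0.08 for Shh and 1.19 ± 0.16 for Ihh (adjusted p = 0.000492 and 0.00535). Both were called in each fit without a single array.

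Of 29 genes of the antioxidant factor NRF2 and of glutathione use, 6 fell and 0 rose, with a median of -0.02. These were the glutathione transferases Gsta2 (-0.72 ± 0.08), Gsta4 (-0.65 ± 0.07) and Gstm1 (-0.58 ± 0.08), the quinone reductase Nqo1 (-0.50 ± 0.11), the export pump Abcc3 (-0.38 ± 0.08) and Nfe2l2, the gene of NRF2 itself (-0.31 ± 0.06, adjusted p = 0.0174). A single array moved this count too, to 3 without control 2 or any 1 of the HT arrays. Over 18 alternatives the call was lost in 13 for Nqo1, 8 for Abcc3, 7 for Nfe2l2, 1 for Gstm1 and 0 for Gsta2 and Gsta4. Second probes gave -0.28 for Abcc3 and -0.25 for Nfe2l2 without a call, and a called -0.65 for Gstm1. Of 16 heat shock genes, the near-identical Hspa1a and Hspa1b fell, by 0.67 ± 0.06 and 0.70 ± 0.08 (adjusted p = 0.00114 and 0.00217), and 0 rose.

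**Figure D3:**
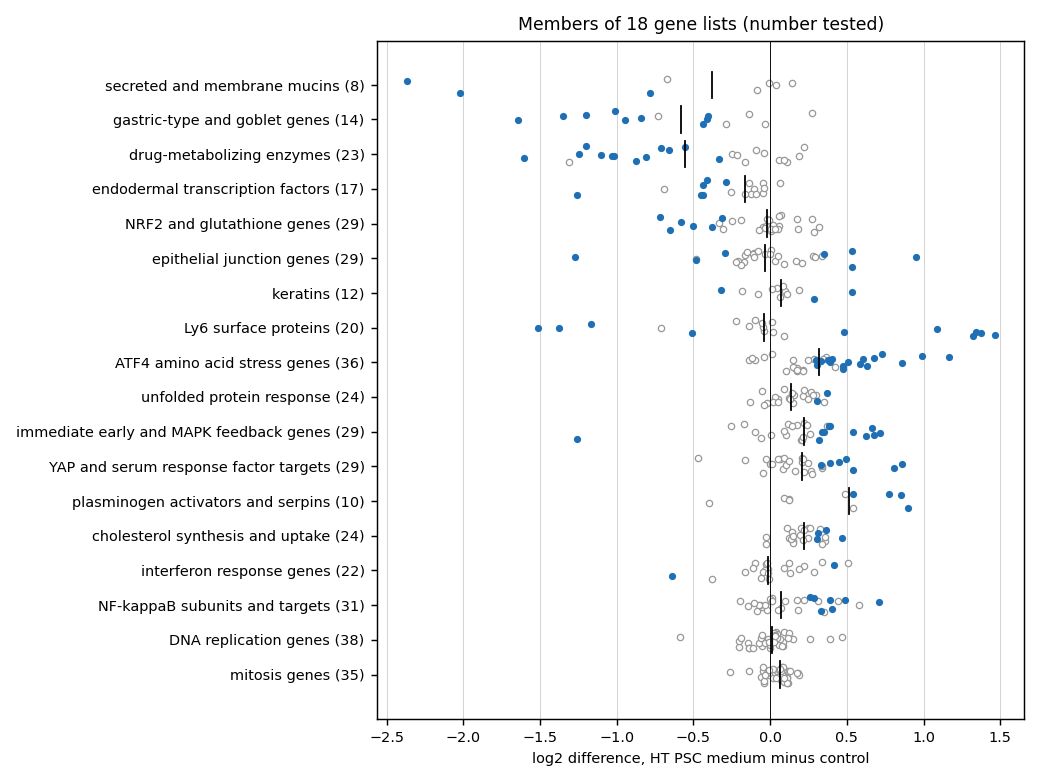
Differences between HT PSC medium and control (log2 units) for each tested member of 18 gene lists, with the number tested in brackets. Filled points passed an adjusted p of 0.05, open points did not, and black bars are medians. The medians of the mucin, gastric and drug-metabolizing lists lie left of 0, at -0.38, -0.58 and -0.56, and that of the ATF4 list lies at 0.32.

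Genes that respond to ATF4, the factor translated when amino acids run short, were mostly higher. Of 36 tested, 17 rose, 0 fell, 32 had positive values and the median was 0.32. The promoters of 4 of the risers and the letters they share are printed here because ATF4 binds a composite element whose core is TGATGNAA. Windows of 250 bases before the annotated start were taken from RefSeq (build GRCm38.p6) and are written 5′ to 3′ on the strand of the gene, with the element in capitals (TTGCATCA is its reverse complement).
Chac1 (chr2:119350992-119351241, plus strand): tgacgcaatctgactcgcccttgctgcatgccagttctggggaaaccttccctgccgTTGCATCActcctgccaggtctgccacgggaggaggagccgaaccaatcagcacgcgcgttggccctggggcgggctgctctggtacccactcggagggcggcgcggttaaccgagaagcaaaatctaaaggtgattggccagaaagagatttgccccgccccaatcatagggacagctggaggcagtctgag
Asns (chr6:7693210-7693459, minus strand): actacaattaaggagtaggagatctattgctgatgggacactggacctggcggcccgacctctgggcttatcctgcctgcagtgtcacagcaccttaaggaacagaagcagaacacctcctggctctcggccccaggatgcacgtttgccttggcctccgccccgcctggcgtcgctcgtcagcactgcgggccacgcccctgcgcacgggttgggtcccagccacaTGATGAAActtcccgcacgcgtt
Atf3 (chr1:191183334-191183583, minus strand): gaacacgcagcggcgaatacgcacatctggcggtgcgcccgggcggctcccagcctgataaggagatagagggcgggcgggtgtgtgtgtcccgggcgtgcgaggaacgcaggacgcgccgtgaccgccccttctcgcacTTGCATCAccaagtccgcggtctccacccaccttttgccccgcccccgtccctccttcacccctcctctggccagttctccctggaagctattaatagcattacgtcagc
Nupr1 (chr7:126625471-126625720, minus strand): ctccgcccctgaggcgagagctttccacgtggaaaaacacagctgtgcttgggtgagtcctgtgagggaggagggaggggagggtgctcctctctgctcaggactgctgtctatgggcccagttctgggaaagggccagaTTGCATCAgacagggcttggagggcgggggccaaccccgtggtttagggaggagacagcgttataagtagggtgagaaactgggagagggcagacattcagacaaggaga
The element begins 193 bases before the start in Chac1, 23 in Asns and 110 in both Atf3 and Nupr1. The search covered both strands of all windows of a gene and, unlike the printed bases, ran a little past the start. The element was present in 10 of the 31 tested list genes with a window in the RefSeq table, against 4.51% of 27025 genes. Among the 16 risers with a window it was in 7, the other members being Trib3, Aars and Gars. A match describes the letters and is not evidence of binding in these cells. The list was made of genes that respond to ATF4, so the share with the element is no result of these data.

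Chac1, which degrades glutathione, was the member with the largest rise. It read 2.61, 2.58 and 2.25 in control medium and 3.90, 3.28 and 3.77 in HT PSC medium, higher on every treated array, by 1.17 ± 0.16 (adjusted p = 0.00591). Trib3, a pseudokinase that restrains ATF4 signalling, read 3.20, 3.04 and 2.98 and 4.30, 3.59 and 4.30. HT array 2 lay below the other two treated arrays for both genes, and the rise of Trib3 was 0.99 ± 0.19 (adjusted p = 0.0218). Within slide 2, which holds HT array 2, the differences were 0.70 for Chac1 and 0.55 for Trib3, against 1.40 and 1.21 within slide 1. The stress hormone Gdf15 rose too, from -0.30, -0.15 and -0.45 in controls to 0.64, 0.05 and 0.60 after treatment. Its difference was 0.73 ± 0.16 (adjusted p = 0.0365), with 0.99 within slide 1 and 0.20 within slide 2.

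Enzymes that make amino acids and one-carbon units followed. The mitochondrial folate enzyme Mthfd2 read 1.43, 1.29 and 1.20 in controls and 2.29, 2.04 and 2.15 in HT PSC medium, and asparagine synthetase Asns read 4.82, 4.69 and 4.89 and 5.56, 5.29 and 5.44. Both were separate between the media and rose by 0.86 ± 0.09 and 0.63 ± 0.09 (adjusted p = 0.00179 and 0.00553). The remaining called members, apart from Ddit4, were chosen after their values were seen. Among them the proline enzyme Aldh18a1 had 0.60 ± 0.06 and the serine and glycine enzymes Psph, Shmt2 and Psat1 had 0.59 ± 0.11, 0.48 ± 0.07 and 0.30 ± 0.06. The aminoacyl-tRNA synthetases Mars1, Aars, Gars and Nars had 0.51 ± 0.07, 0.38 ± 0.06, 0.33 ± 0.07 and 0.31 ± 0.07. Atf4 itself had 0.40 ± 0.08 (adjusted p = 0.0279), the mTOR inhibitor Ddit4 0.39 ± 0.08 and the stress protein Nupr1 0.47 ± 0.09, whose second probe gave -0.028. The number of calls was 8 without control 1 or HT array 1, 9 without HT array 3, 10 without control 2, 11 without control 3 and 15 without HT array 2. Median centring left 10. Further probes above background gave 0.29 for Shmt2, 0.19 for Aars and 0.18 for Psat1, none called. The median of the list was 0.35 within slide 1 and 0.22 within slide 2. The related unfolded protein response list of 24 genes had 2 risers, the sensor Atf6 (0.37 ± 0.06; -0.40 by a dim second probe) and the quality-control protein Edem1 (0.30 ± 0.07), 0 falls and a median of 0.14. Each of the 6 fits without a single array left 1 of them.

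Immediate early genes and feedback genes of the MAP kinases were raised: of 29 tested, 11 rose, 1 fell and the median was 0.22. The zinc finger factor Egr1 read 1.12, 1.04 and 1.07 in control medium and 1.84, 1.62 and 1.93 in HT PSC medium, all treated arrays above all controls, a rise of 0.71 ± 0.09 (adjusted p = 0.00303). The AP-1 subunits Fos and Fosb rose by 0.54 ± 0.11 and 0.63 ± 0.09 (adjusted p = 0.0281 and 0.00522). Atf3, a stress-induced factor that both the ATF4 and this list hold, rose by 0.68 ± 0.07, and Dusp5, a phosphatase that switches off ERK, by 0.66 ± 0.06 (adjusted p = 0.00172 and 0.00119). Other called risers, chosen after their values were seen apart from Myc, were Junb (0.39 ± 0.09), Dusp1 (0.38 ± 0.08), Ier3 (0.38 ± 0.07), Myc (0.35 ± 0.07), Fosl1 (0.34 ± 0.08) and Ier2 (0.32 ± 0.07). Klf4 was the member that fell. Second probes above background gave 0.36 for Dusp5, 0.22 for Myc and 0.13 for Ier2, none called. In all, 4 risers were called without control 1, control 2, HT array 1 or HT array 3, 7 without HT array 2 and 8 without control 3, and median centring also left 4.

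Targets of YAP and serum response factor showed 7 rises and 0 falls among 29 tested, with a median of 0.21. Promoter windows of the pair with the largest rises are printed in the same way, with the TEAD core GGAATG or its reverse complement CATTCC in capitals.
Ankrd1 (chr19:36119845-36120094, minus strand): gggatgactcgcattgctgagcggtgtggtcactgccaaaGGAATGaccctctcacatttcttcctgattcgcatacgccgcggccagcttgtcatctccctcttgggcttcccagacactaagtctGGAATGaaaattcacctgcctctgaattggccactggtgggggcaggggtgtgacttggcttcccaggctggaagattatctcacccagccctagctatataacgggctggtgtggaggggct
Ccn1 (chr3:145649986-145650235, minus strand): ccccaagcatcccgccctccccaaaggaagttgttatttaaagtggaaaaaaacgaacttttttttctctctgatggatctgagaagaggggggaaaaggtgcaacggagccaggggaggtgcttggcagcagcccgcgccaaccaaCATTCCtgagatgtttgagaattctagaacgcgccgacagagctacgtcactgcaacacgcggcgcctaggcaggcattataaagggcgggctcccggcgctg
The core begins 210 and 123 bases before the start in Ankrd1 and 103 bases before it in Ccn1. The search again ran a little past the start. The core was found in 12 of 24 list genes with a window, including 3 of 6 risers (Ccn1, Ankrd1 and Amotl2), against 16.6% of all 27025 genes. The CArG box of serum response factor was in 6 of the 24, among the risers in Cnn2, against 1.81% of all genes. As the list was made of targets of these factors, the shares are no result of these data. Again, a match is not evidence of binding in these cells. Ccn1, a matricellular protein, read 1.92, 1.90 and 1.88 in controls and 2.62, 2.86 and 2.80 in HT PSC medium, and the ankyrin repeat protein Ankrd1 read 3.74, 3.77 and 3.92 and 4.55, 4.62 and 4.69. Both were clear of the controls on every array, with rises of 0.86 ± 0.09 and 0.81 ± 0.07 (adjusted p = 0.00204 and 0.000937). Ccn2 rose by 0.50 ± 0.07, the tissue factor F3 by 0.54 ± 0.09, the YAP-binding protein Amotl2 by 0.45 ± 0.10 and the actin-binding calponin Cnn2 by 0.39 ± 0.08, while the actinin Actn1, chosen after its value was seen, had 0.33 ± 0.08. The number called was 3 without control 1, control 2 or HT array 3, 4 without HT array 1 or 2 and 7 without control 3.

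The plasminogen and clotting system, which cells use to cut matrix, had 4 rises and 0 falls among 10 genes tested, and 9 positive values with a median of 0.52. The urokinase Plau, a protease that activates plasminogen, read -1.74, -1.77 and -1.89 in control medium and -0.73, -1.21 and -0.90 in HT PSC medium. Treated arrays lay above all controls, by 0.85 ± 0.14 (adjusted p = 0.0123). Thrombomodulin, Thbd, rose by 0.78 ± 0.16 and F3 as given above. Of the 4 risers, 2 were called without control 1 or HT array 3. Among 16 matrix proteases and inhibitors 3 rose: the collagenase Mmp13 (0.97 ± 0.14, adjusted p = 0.00614), the sheddase Adam8 (0.45 ± 0.10) and Mmp11 (0.38 ± 0.08), with Adamts15 as the faller. That count was 1 without control 2, control 3, HT array 1 or HT array 3. Thbs1, a matricellular activator of TGF-beta, rose by 0.70 ± 0.11 and was the called member of 25 collagen and matrix genes. In the TGF-beta and BMP list of 26 the activin subunit Inhba (0.65 ± 0.11) and the activin antagonist Fstl3 (0.41 ± 0.08) were among the risers, and Id3, a BMP target, fell by 0.60 ± 0.09.

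Members of the Ly6 family, small lipid-anchored surface proteins, went both ways: of 20 tested, 6 rose and 4 fell, with a median of -0.04. Ly6a, the antigen Sca-1 of progenitor cells (chr15:74825553-74825612), read 1.55, 1.53 and 1.66 in controls and 3.05, 2.70 and 2.95 in HT PSC medium. Ly6c1 read 2.32, 2.41 and 2.43 and 3.90, 3.52 and 3.77. The separation was complete for each, and they rose by 1.32 ± 0.10 and 1.34 ± 0.10 (adjusted p = 0.000492 and 0.000492). Ly6c2 (1.37 ± 0.09), Ly6g (1.47 ± 0.17) and Ly6f (1.09 ± 0.26, adjusted p = 0.0477) rose too, although probes of these neighbouring copies may read one another. The call of Ly6f was lost in 9 of 18 alternatives. Ly6e, chosen after its value was seen, had 0.48 ± 0.08. Lypd6, a Wnt co-receptor modulator, fell by 1.51 ± 0.14 (adjusted p = 0.00119) by its brightest probe, while another probe above background on all 9 arrays gave -0.10 (adjusted p = 0.87), and Slurp1, a secreted member, was at least 1.54-fold lower and not well above background after treatment. Slurp1 entered the test through its control arrays only. Lypd8 and Lypd6b, chosen after their values were seen, had -1.17 ± 0.17 and -0.51 ± 0.12. Risers numbered 4 without HT array 1 and 5 or 6 in the other fits without a single array, and 3 fallers were called in each of these fits.

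Other genes among the 15 largest rises were of varied kind. Rhox5, from the reproductive homeobox cluster on the X chromosome, read -2.21, -2.22 and -2.29 in control medium and -0.37, -0.32 and -0.51 in HT PSC medium. With such narrow groups its rise of 1.84 ± 0.07 had the smallest adjusted p of the named genes together with Fer1l4 (3.31e-05). The membrane-anchored serine protease Prss27 rose by 1.64 ± 0.15 and its relative Prss22 by 0.82 ± 0.09, the called pair among 15 epithelial proteases and inhibitors. Prss46 passed as higher (adjusted p = 0.00509), with 2 of 3 controls well above background and a fitted value of 0.48 to 1.25 over the alternatives. Cardiac troponin T, Tnnt2, read 0.56, 0.66 and 0.77 and 2.15, 1.93 and 1.99 by its brightest probe (1.36 ± 0.08), but a second probe well above background on all 9 arrays gave -0.082. Mfap3l, a membrane glycoprotein, rose by 1.31 ± 0.08. Rims2, a synaptic scaffold, and Fam163a were at least 1.98-fold and at least 1.85-fold higher, with no control array well above background. Both therefore entered the test through their conditioned-medium arrays only. The call of Fam163a was lost in 7 of 17 alternatives, and the next probe of Rims2, at background, had -0.16. The neuropeptide Vip passed as higher (adjusted p = 0.0147), but 1 control array was well above background, the fitted value was 0.44 to 1.28 over the alternatives and the call was lost in 5 of 17.

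Junction and keratin genes moved in both directions. Of 29 epithelial junction genes 4 rose and 3 fell, with a median of -0.03. The tight-junction claudins Cldn4, Cldn6 and Cldn3 rose by 0.95 ± 0.12, 0.54 ± 0.08 and 0.35 ± 0.07 and the desmosomal plakophilin Pkp1 by 0.53 ± 0.07. Cldn4 read -0.26, -0.73 and -0.53 in controls and 0.42, 0.36 and 0.56 after treatment, without overlap. The scaffold Tjp3 fell by 0.48 ± 0.07 and the desmosomal cadherin Dsg2, chosen after its value was seen, by 0.29 ± 0.07, and the epithelial factor Grhl2 was at least 1.54-fold lower by its brightest probe, whereas another probe, at background, had 0.11. Grhl2 entered the test through its control arrays only. The cadherin Cdh1 had -0.11 ± 0.06 (adjusted p = 0.402) and did not pass. Among 12 keratins Krt14 (0.53 ± 0.09) and Krt7 (0.29 ± 0.06) rose and Krt20 (-0.32 ± 0.08) fell. Each fit without a single array called 3 junction risers, and it called 1 faller without control 1, HT array 2 or HT array 3 and 2 otherwise. The keratin risers numbered 1 without control 3 or HT array 1 and 0 without the others, and Krt20 was not called in any of these 6 fits.

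Growth factor and signalling genes changed singly. The EGF-family ligand Nrg1 read 0.46, 0.40 and 0.34 in control medium and 1.00, 1.05 and 0.99 in HT PSC medium and rose by 0.62 ± 0.06 (adjusted p = 0.00146). The feedback inhibitors Errfi1 and Lrig1 and the ligand Hbegf rose by 0.43 ± 0.07, 0.31 ± 0.06 and 0.27 ± 0.06, so that 4 of 16 EGF-family genes rose and 0 fell. Second probes above background on all 9 arrays gave 0.02 for Nrg1, 0.05 for Errfi1, 0.19 for Lrig1 and -0.60 for Hbegf, and none of the 4 was called. The count was 1 without HT array 3, 3 without control 1 and 2 without each other array, and 1 member fell without HT array 3 and 2 without control 3. The carrier Fgfbp1 rose by 0.80 ± 0.10 and Pdgfb by 0.43 ± 0.09 (-0.14 by another probe), while Fgf1 fell by 0.53 ± 0.06, and whichever array was left out 1 riser was called. Of 26 Wnt genes the ligands Wnt9a, Wnt7b and Wnt7a (0.62 ± 0.08, 0.40 ± 0.06 and 0.38 ± 0.08) and the factor Tcf7 (0.47 ± 0.10) rose and the receptor Lgr4 fell by 0.40 ± 0.08. Wnt risers numbered 1 without HT array 1, 3 without control 3 and 2 without each other array, and Lgr4 was called without HT array 2 or control 3 only. Of 17 circadian genes 3 rose, all repressors, in each fit without a single array as well: Bhlhe40 (0.49 ± 0.06), Bhlhe41 (0.81 ± 0.09) and Ciart (0.62 ± 0.07). Their next probes gave 0.48 for Bhlhe41 and 0.04 for Ciart, neither called. The cell cycle inhibitors Gadd45a and Gadd45b rose by 0.75 ± 0.07 and 0.35 ± 0.06, and Ddit4l fell by 0.70 ± 0.09, among 29 p53-linked genes. The riser count there was 1 without control 1 or HT array 1, and a Gadd45a probe at background had 0.09.

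Inflammatory lists had shares of called genes above the 5.47% of all genes, as did most of the other lists. Because the lists were chosen with earlier results of these data known, such shares are description only. Of 31 NF-kappaB subunits and targets 7 rose and 0 fell, with a median of 0.07. Cyclooxygenase 2, Ptgs2, rose by 0.71 ± 0.11 and the monocyte chemokine Ccl2 by 0.49 ± 0.09 (adjusted p = 0.00959 and 0.0159). The others were the feedback inhibitor Tnfaip3 (0.33 ± 0.06), Tnfaip2 (0.40 ± 0.09), the survival gene Bcl2l1 (0.39 ± 0.08), the subunit Rel (0.29 ± 0.07) and, chosen after its value was seen, the subunit Nfkb2 (0.26 ± 0.06). A further Bcl2l1 probe gave 0.24 without a call. This count fell to 1 without control 1, HT array 1 or HT array 3, 2 without control 2, 4 without control 3 and 5 without HT array 2. Among 28 chemokines and interleukins the macrophage growth factor Il34 (0.72 ± 0.07), the STAT3-activating cytokine Lif (0.73 ± 0.14), Ccl17 (0.63 ± 0.10) and Ccl2 rose, and Il18 and Il15 fell by 0.47 ± 0.09 and 0.28 ± 0.06. Of these risers 2 were called without control 2, HT array 1 or HT array 3, while 6 genes rose without control 3, and at most 1 faller was called whichever array was left out. Of 22 interferon response genes Bst2 rose by 0.42 ± 0.09, a call lost whichever array was left out, and Oasl1 fell by 0.64 ± 0.06. Complement C3 read -0.25, -0.31 and -0.57 in controls and -1.09, -1.67 and -1.16 after treatment, a fall of 0.93 ± 0.15 (adjusted p = 0.0129) with HT array 2 lowest, whereas a second C3 probe, above background on all 9 arrays, gave -0.32 (adjusted p = 0.20). The inhibitor Cfi fell by 0.69 ± 0.15 and the protease Masp1 rose by 0.66 ± 0.08, the called members of 14 complement genes, and another Masp1 probe gave 0.34 without a call. The complement fallers numbered 0 without control 1 and 1 without control 2 or 3.

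In lipid metabolism, a few cholesterol genes rose and droplet and PPAR genes went both ways. Of 24 cholesterol genes 4 rose and 0 fell, 22 had positive values and the median was 0.22. The enzymes called were Pmvk (0.47 ± 0.09), Cyp51 (0.36 ± 0.07), Sc5d (0.31 ± 0.06) and Lss (0.31 ± 0.07), with adjusted p = 0.0215 to 0.0471. Other probes of Cyp51, Sc5d and Lss gave 0.19, 0.22 and 0.20 without a call. The number called was 0 without control 1, HT array 1 or HT array 2, 1 without control 3 and 2 without control 2 or HT array 3. The droplet coat gene Plin4 read -1.32, -1.48 and -1.47 in control medium and -2.89, -3.09 and -2.95 in HT PSC medium, the farthest apart of its list, and fell by 1.55 ± 0.07 (adjusted p = 6.73e-05). Pparg, the lipid-sensing nuclear receptor, and the carrier Fabp3 fell by 0.48 ± 0.08 and 0.42 ± 0.09. The droplet genes Hilpda, Plin2 and Cidea rose by 0.52 ± 0.06, 0.36 ± 0.08 and 0.48 ± 0.11. Over 18 alternatives the call was lost in 13 for Fabp3 (values -0.51 to -0.11), 12 for Cidea, 9 for Plin2, 4 for Pparg and 0 for Hilpda and Plin4. Another Fabp3 probe gave -0.35 without a call. Among 27 such genes the 4 fallers numbered 3 without control 3 and 2 without each other array, and the 3 risers numbered 1 without control 1, control 2, HT array 1 or HT array 3. Cidea had 0.64 within slide 1 and 0.18 within slide 2. Of 15 prostaglandin genes Ptgs2 and the phospholipase Pla2g4a (0.37 ± 0.07, chosen after its value was seen) rose and 5 fell: Pla2g10, the prostaglandin transporter Slco2a1 (-0.83 ± 0.06), the receptor Ptger4 (-0.47 ± 0.07), the cyclooxygenase Ptgs1 (-0.44 ± 0.09) and the reductase Cbr1 (-0.39 ± 0.07). Fallers numbered 2 without control 2 or HT array 2 and 3 without control 1 or HT array 3, and 1 riser was called without control 1, control 2, HT array 1 or HT array 3. Another Ptger4 probe gave -0.14 without a call. The lactate exporter Slc16a3 (0.78 ± 0.16; 0.09 by a probe at background), Ddit4 and Pfkfb3 (0.30 ± 0.07; -0.031 by another probe) were the risers among 36 glycolysis and hypoxia genes, with 0 called without control 1, HT array 1 or HT array 3 and 1 without control 3 or HT array 2.

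Proliferation and respiration genes gave no calls. In limma 0 of 38 DNA replication, 0 of 35 mitosis and 0 of 29 respiratory chain genes passed, with medians of 0.01, 0.06 and 0.04. At an unadjusted p under 0.05 there were 7, 2 and 1, against 19.8% of all genes, and 1 replication gene passed without control 3. The median of the mitosis list was -0.01 within slide 1 and 0.16 within slide 2, and that of the replication list -0.03 and 0.11.

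Markers of other cell types stood beside these changes as follows. The summed level of the 11 stellate cell markers was 3.97 to 4.16 in controls and 4.16 to 4.44 in HT PSC medium, against 9.65 to 10.1 in the wild-type stellate cells. Acta2 made up most of it in the cancer cells, with 0.21 ± 0.10 (adjusted p = 0.284). Col1a1 was dim, at -4.72 to -4.22 in controls and -4.14 to -3.98 after treatment, against 7.21 to 7.75 in wild-type stellate cells. The 8 macrophage and leukocyte markers summed to 3.91 to 4.12 in controls and 4.01 to 4.08 after treatment. Of these, Lyz2, Adgre1 and Tyrobp were not well above background on any of the 6 arrays. Ptprc, Cd68, Csf1r, Fcer1g and Cd14 were well above background on all 6. The Cd68 gene, of a lysosomal protein, rose by 0.55 ± 0.08 (adjusted p = 0.0066), the called gene of that list. The part of these markers in the other results was not tested. Of 5 endothelial markers 4 and of 4 mesothelial markers 3 were not well above background on any of these arrays, and the exception Msln, which ductal cancer cells also express, had 0.00 ± 0.11. Of 5 acinar markers Cela1, the only 1 tested, fell by 0.37 ± 0.09 (adjusted p = 0.0494), a call lost whichever array was left out. Of 5 endocrine markers 1 was tested and of 4 Schwann cell markers 3, with 0 calls in limma and S100b at an unadjusted p under 0.05.

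The last question was whether heterozygous medium acted differently from wild-type medium. No gene passed limma's threshold between HT and WT PSC medium (0 of 19681, with 961 or 4.88% at an unadjusted p under 0.05), and the smallest adjusted p was 0.12. Wild-type medium against the shared controls had 1171 calls (5.95%), 551 higher (2.8%) and 620 lower (3.15%), with 20.2% of genes at an unadjusted p under 0.05. Over the 1076 genes called for HT PSC medium, the difference between the media had a median size of 0.095, with a median half-width of 0.19 for its 95% interval. For Muc5ac, WT PSC medium read -0.39, -0.51 and -0.85, and HT minus WT was 0.26 (95% interval -0.08 to 0.61). For Muc5b it was 0.43 (0.07 to 0.80) and for Chac1 0.31 (-0.06 to 0.68). These intervals bound the differences and do not show that the media act alike. The drug-metabolizing list had a median of -0.78 in WT PSC medium against -0.56 in HT PSC medium, and the ATF4 list 0.24 against 0.32, both from the same controls.

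Krt25, an inner root sheath keratin (chr11:99177867-99178575), had the smallest p between the media. It read -4.09, -4.10 and -3.87 in HT PSC medium, -7.72, -7.95 and -7.49 in WT PSC medium and -7.89, -7.76 and -6.30 in control medium. The HT arrays were well above background and no other of the 9 arrays was. Its level exceeded that in control medium at least 2.89-fold (adjusted p = 0.00235) and that in WT PSC medium at least 2.87-fold (adjusted p = 0.12). The adjusted p-values test the fitted differences and not these bounds, and Krt25 entered the test through its HT arrays only. With the other group at background only these bounds were measured, and HT minus WT was 1.00 after normexp correction and 1.02 in the series' own value table. It passed between the media after normexp correction (adjusted p = 0.0141), median centring (0.0159), with only those groups in the fit (0.000844) and with trended, robust variances (0.0185), and reached 0.43 with slide as a block. The stellate cells themselves were not well above background for Krt25 on any array. Of the next smallest p-values, Egr1 had 0.48 (0.29 to 0.68), with WT PSC medium at 1.33, 1.36 and 1.23. Fbxo2, a ubiquitin ligase subunit, rose by 0.38 ± 0.07 against control and read 1.18, 1.16 and 1.15 in HT and 1.58, 1.50 and 1.72 in WT PSC medium, a difference of -0.43. Fndc3a had 0.38 and Aqp2 -0.34. Adjusted p was 0.875, 0.875, 0.823 and 0.875 in that order, so none of these 4 passed.

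**Figure D4:**
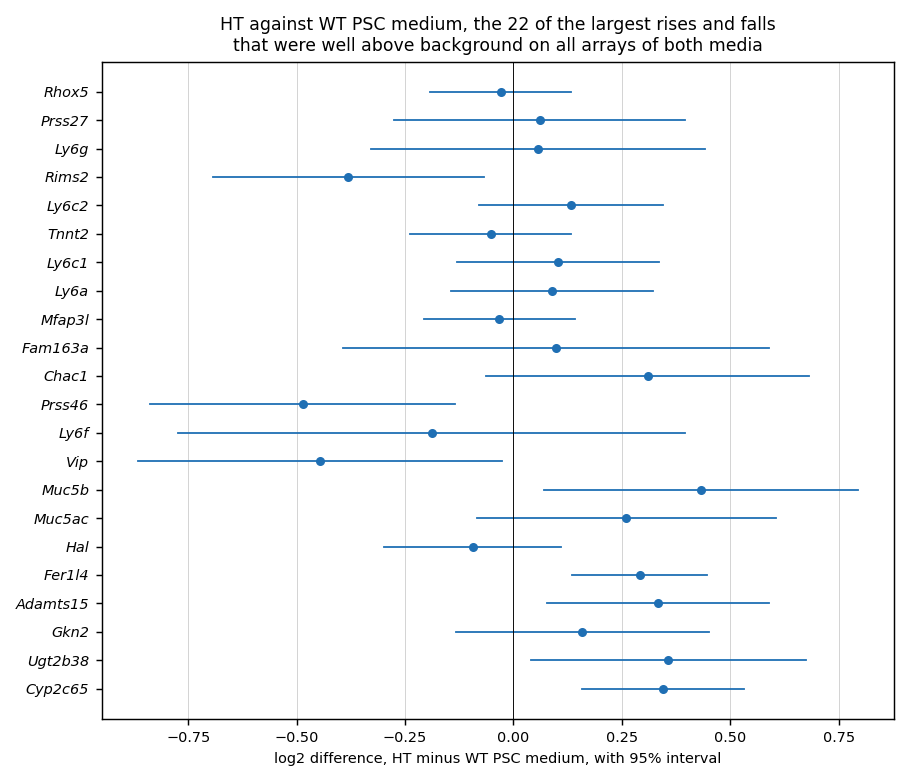
Difference between HT and WT PSC medium (log2 units, points) with its 95% interval (lines) for the 22 of the 30 largest rises and falls against control that were well above background on all arrays of both media. Intervals come from the fit of 9 arrays and are not adjusted for the number of genes. Of the 22 intervals 14 include 0, and Muc5b lies at 0.43 with an interval of 0.07 to 0.80.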

How the data were processed

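RNA of 15 samples was labelled in 1 colour and hybridised to Agilent mouse arrays. Per the file headers, the authors' scans were read with Agilent Feature Extraction 10.7.3.1, whose deposited processed signal is a background-subtracted intensity on a linear scale, and probe positions refer to mm9. The deposited value table of the series holds log2 values with unstated scaling, which correlated at 0.9949 to 0.9989 with the log2 mean signal of each array.

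The log2 processed signal minus the 75th percentile of its array was used. Control and outlier spots were left out, and repeated spots were averaged. Of 56605 probes, 33903 were named by accession and 9458 by symbol through RefSeq (GRCm38.p6), 488 by synonym, and 12756 kept the file's name. Each gene was read from its brightest probe over 15 arrays, and a gene was tested if every array of 1 or more cancer cell groups had it well above background. The fit used limma 3.58.1 (lmFit, eBayes, Benjamini-Hochberg) in R 4.3.3 on 9 arrays, so the 3 groups share 1 estimate of spread, and the number of arrays limits the precision. It was tested on simulated data.

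Named genes were the up to 15 largest rises and 15 largest falls without overlap between groups, up to 6 called members of each list, cell type markers, and the 5 smallest p between the conditioned media. Other genes are said to be chosen after their values were seen, and some called list members are not reported here. The members and the 56 gene lists were chosen with earlier results of these data known. Alternatives covered background correction, scaling, filters, probe choice, slide, replicate number, variance model, thresholds and single arrays left out. Same-numbered HT PSC medium and control arrays deviated together at correlations of -0.144, 0.379 and 0.103, so the numbers were not taken to pair samples. Figures were drawn with matplotlib 3.10.9.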

Additional observations from a re-analysis of the deposited data

Results flagged for a closer look

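Aqp2, a water channel gene, was picked out because the conditioned media lay on opposite sides of the controls. It read -2.16, -2.12 and -2.13 in control medium, -2.39, -2.28 and -2.31 in HT PSC medium and -2.02, -2.01 and -1.92 in WT PSC medium. Every HT array lay below every control and every WT array above every control. The difference from control was -0.187 in HT PSC medium and 0.16 in WT PSC medium. The difference between the media was tested: HT minus WT was -0.34 (-0.48 to -0.21), with a limma adjusted p of 0.875 over 19681 genes, and did not pass.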

How the results depend on the processing

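The genes called between HT PSC medium and control kept their sign wherever a setting with the same probe gave them a value (1023 of 1076 with probes above background on all 9 arrays, 1075 with only the 2 groups compared, 1076 otherwise), but the number of calls moved. It was 535 with arrays centred on the median, 334 without a filter on dim probes (146 higher and 188 lower), 514 with only the 2 groups compared, 103 at 2-fold or more and 327 at an adjusted p of 0.01. Within slide 1 and within slide 2 limma called 0, with 2250 and 1877 genes at an unadjusted p under 0.05. Leaving out single arrays gave 484 (without HT array 1, 205 higher and 279 lower) to 927. The other settings gave 792 to 1337. With the replicate number as a replicate block the count was 792, but no label says that the 3 numbers pair the samples. The kept signs were fixed in advance in many settings. For slides taken alone and single arrays left out, they followed from the lack of overlap between the groups. With a block, other variances, other filters or only the 2 groups compared, a gene with all arrays read kept the same difference in group means.

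Between HT and WT PSC medium 1 gene, Krt25, was called after normexp correction, median centring, with only the 2 groups compared and with trended, robust variances, and 0 under the other settings, including 0 to 0 when single arrays were left out and 0 with the replicate block. WT PSC medium against control had 638 calls with median centring, 468 without the filter, 18 within slide 1, 0 within slide 2, 148 at 2-fold or more, 473 at an adjusted p of 0.01, 966 with the replicate block and 578 (without WT array 3) to 1050 without single arrays.

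With the next brightest probe, 44 of the 105 named genes that have one kept their call, 50 kept their sign without it and 11 reversed: Rims2 (-0.163), Tnnt2 (-0.0819), Muc2 (0.115), Grhl2 (0.106), Hbegf (-0.600), Pdgfb (-0.142), Atf6 (-0.398), Pfkfb3 (-0.0307), Sema6a (0.115), Nupr1 (-0.0276) and Cyp2s1 (0.0851). The cause of these shifts was not tested. Genes near the array floor have only bounds.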

Other observations

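Families grouped by gene symbol, assembled after the values were seen, are given as counts beside 2.97% higher and 2.49% lower among all genes. They recount genes of the lists, among them Cyp2c65, Ugt2b34, Cldn4 and Mars1, and are no separate evidence. Of 10 Cyp2c genes 7 fell and 0 rose, with a median of -1.27, whereas of 35 other Cyp genes 7 fell and 1 rose, with a median of -0.14. All 5 Ugt2 genes tested and both Ugt1a genes fell, although probes of such copies may read one another. Of 17 cytosolic aminoacyl-tRNA synthetases, which charge tRNAs with amino acids, 7 rose and 0 fell, and 15 had positive values (median 0.31). Of 14 claudins 4 rose and 0 fell (median 0.02).

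Some genes of liver and intestine, also chosen after their values were seen, were lower. Ttr, a thyroid hormone carrier, fell by 1.54 ± 0.13, Fabp1, a fatty acid carrier, by 1.33 ± 0.14 and Hao1, a glycolate oxidase, by 1.31 ± 0.14 (a Ttr probe at background had -0.15; limma adjusted p = 0.000819, 0.0018 and 0.00204). The co-activator Ppargc1b fell by 1.35 ± 0.11 and involucrin, Ivl, by 1.33 ± 0.09. The hyaluronan synthase Has2 rose by 0.84 ± 0.19 (adjusted p = 0.0401). Its antisense gene Has2os was at least 1.44-fold higher, and whether the probes tell the strands apart was not tested. No control array of Has2os was well above background, so it entered the test through conditioned-medium arrays only. Its call was lost in 6 of 17 alternatives.

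Further lists had 1 to 5 calls each. Of 21 acute phase and STAT3 genes Lif and the kinases Pim1 (0.39 ± 0.07) and Pim3 (0.46 ± 0.07) rose, 1 of them called without control 2, HT array 1 or HT array 3, and the receptor Il6ra fell by 0.39 ± 0.09, a call kept without control 3 only. Of 14 antigen presentation genes H2-K1 and H2-M3 rose by 0.33 ± 0.06 and 0.45 ± 0.10, with 0 called without control 3, HT array 1 or HT array 3 and 1 otherwise. Of 25 integrin, laminin and adhesion genes Lamb3 and Itgav rose by 0.48 ± 0.08 and 0.33 ± 0.08, with 0 called without control 2, HT array 1 or HT array 3 and 1 without control 3 or HT array 2. The Notch modifier Lfng, of 13 Notch genes, rose by 0.44 ± 0.09 and the lipin Lpin1, of 20 fatty acid genes, by 0.26 ± 0.06, both called without control 1 and lost without each other array. Other probes gave -0.09 for Il6ra, 0.12 for H2-K1, 0.14 for Itgav, 0.18 for Lpin1 and, at background, 0.0034 for Lfng, none called. The galectin Lgals2 fell by 0.62 ± 0.09, of 10 tested. Of 36 axon guidance genes Sema3a rose by 0.63 ± 0.10, and Epha1, Sema4g and Slit1 fell by 0.55 ± 0.09, 0.48 ± 0.07 and 0.46 ± 0.08. Sema6a was at least 1.59-fold lower, with no treated array well above background, and entered the test through its control arrays only. Its call was lost in 10 of 17 alternatives, and another Sema6a probe, at background, had 0.12. With Sema6a included, 4 fallers were called without control 3 and 2 without each other array. Of 24 ion and metal genes carbonic anhydrase Car2 rose by 0.51 ± 0.09, and the water channel Aqp1 and the pump subunit Atp1b1 fell by 0.80 ± 0.09 and 0.76 ± 0.09. The NADPH oxidase and histone lists had 0 calls in limma among 6 and 9 genes, with 4 and 2 at an unadjusted p under 0.05.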
